A study of Mus musculus with 2 samples.

Results

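Epidermal keratinocytes were found among cells that had been sorted as melanocytes from mouse skin at early anagen, the stage at which hair follicles (HFs) resume growth. The cells described here were chosen by measured keratin levels, and a part of them also carried much melanocyte RNA. A barcode was taken if it held over 10000 unique molecular identifiers (UMIs, counted RNA molecules) and under 5% mitochondrial UMIs. It also needed a sum of Krt5, Krt10 and Krt14 at or above 2000 CPM (UMIs of the gene scaled to a total of 1000000 UMIs). The rule selected 113 of the 3464 barcodes of the early-anagen library that passed the depth and mitochondrial limits (3.26%, 95% Clopper-Pearson interval 2.70 to 3.91), out of 15337 barcodes deposited in 2 libraries. All Poisson and binomial intervals below are at 95% and cover counting error only.

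The early-anagen library, named Activated McSC, was made from Dct-rtTA; tetO-H2B-GFP mice of 8 weeks, 4 days after their back hair was plucked. The library named Differentiated Mc came from hair bulbs dissected at anagen VI from mice of the same genotype at 5 weeks. Mice of both groups had doxycycline for 4 days, so that the melanocyte promoter Dct drove nuclear GFP, and were of mixed background and either sex. Cells of 4 mice were pooled per library and sorted as GFP-positive and DAPI-excluded, so the keratinocytes described here passed a melanocyte gate, and neither GFP nor the transgene was measured in the files. The first library used a version 3 kit on trypsin-separated epidermis, and the second a version 2 kit on bulbs dissociated with collagenase and dispase. With 1 library per condition there was no test between conditions, and cells of 1 library are not replicates, so no p-value is given. The early-anagen library held 116800173 UMIs in 11010 barcodes and the bulb library 58161397 UMIs in 4327 barcodes, with 1 barcode sequence in common.

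The epidermis renews itself from a basal layer that is anchored to the basement membrane by hemidesmosomes and builds its filaments from keratins 5 and 14. Cells that leave this layer switch to keratins 1 and 10, strengthen their desmosomes, and in the granular layer make loricrin, filaggrin and small proline-rich proteins for the cornified envelope. Keratins 6, 16 and 17 are known from the outer root sheath of the HF and from wounded or hyperproliferative epidermis. Keratinocytes also receive pigment from melanocytes and supply them with signals such as Kit ligand and endothelins.

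The genes of the description lie in the keratin clusters and elsewhere on GRCm38: Krt14 at chr11:100203162-100207548, Krt10 at chr11:99385254-99389364, Krt17 at chr11:100256217-100261029, Krt5 at chr15:101707070-101712898, Krt1 at chr15:101845426-101850794, Lgals7 at chr7:28863853-28866284, Sfn at chr4:133600556-133602168 and Sprr1a at chr3:92483952-92485895. All but Lgals7 are on the minus strand. The 200 bases before the RefSeq start (GRCm38.p6, minus strand) are shown for 3 of them. These were taken as examples of the basal, the suprabasal and the wound-associated genes described below. They are chr15:101712906-101713105, chr11:99389365-99389564 and chr3:92485882-92486081, and capitals mark TATAAA and TGANTCA, a letter pattern shared by AP-1 sites.
Krt5: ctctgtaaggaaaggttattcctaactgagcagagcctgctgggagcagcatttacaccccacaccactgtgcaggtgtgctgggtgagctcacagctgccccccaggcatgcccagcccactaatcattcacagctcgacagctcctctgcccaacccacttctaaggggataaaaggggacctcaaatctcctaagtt
Krt10: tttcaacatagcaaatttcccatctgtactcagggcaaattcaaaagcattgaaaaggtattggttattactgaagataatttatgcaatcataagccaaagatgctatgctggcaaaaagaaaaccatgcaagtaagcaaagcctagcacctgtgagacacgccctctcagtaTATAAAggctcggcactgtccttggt
Sprr1a: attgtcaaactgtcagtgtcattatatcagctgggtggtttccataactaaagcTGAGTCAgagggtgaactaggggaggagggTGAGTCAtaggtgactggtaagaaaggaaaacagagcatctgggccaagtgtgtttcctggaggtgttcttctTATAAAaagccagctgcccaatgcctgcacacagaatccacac
The Krt10 stretch held TATAAA with its first base 26 before the start, and the Sprr1a stretch held it 43 before the start together with TGANTCA at 146 and 116. Neither pattern was present in these 200 bases of Krt5, and GCCNNNGGC, the letters of an AP-2 site, was in none of the 3. Among 32851 RefSeq promoters of the same length searched on both strands, 9.96% held TATAAA, 5.48% held TGANTCA and 11.8% held GCCNNNGGC. A match is a description of letters and not a measured binding site.

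The selected cells were deep. They held between 10072 and 109945 UMIs with a median of 32865, against a median of 22919 in the 3351 other cells that passed the limits, referred to below as the other deep cells. Their rule keratins ran to 47108 CPM with a median of 7137 CPM. The cells nearest inside the limit stood at 2019, 2048 and 2063 CPM and those nearest outside at 1978, 1969 and 1946 CPM, so no gap separated them. Of the other deep cells, 1740 had no rule keratin UMI and 128 had 1000 CPM or more. At the limit the cells were also rich in melanocyte RNA: the summed level of 8 melanocyte markers had a median of 18393 CPM in the 10 nearest inside and 20288 CPM in the 10 nearest outside. When the deep cells were instead ranked by 6 epithelial genes outside the rule (Sfn, Lgals7, Perp, Dsp, Pkp1 and Trp63), 98 of the top 113 were the same cells.

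All of the 6 keratinocyte markers were present. Krt14, a type I keratin of basal cells, lay between 0 and 35052 CPM with a median of 2448 CPM over the 113 cells and had a UMI in 108 of them. Its pooled level was 6673 CPM (6595 to 6752) against 32.9 CPM in the other deep cells. Its partner Krt5 had a median of 1680 CPM and a pooled level of 2863 CPM against 15.6 CPM. Lgals7, galectin-7 of stratified epithelia, was in every one of the 113 cells, between 505 and 32237 CPM with a median of 5201 CPM, and its pooled level was 9133 CPM against 88.4 CPM. Sfn, the epithelial 14-3-3 sigma, was in 112 cells at a median of 928 CPM. Krt17 was in 87 cells, with a median of 1106 CPM, a highest value of 33115 CPM, and a pooled level of 2496 CPM against 23.7 CPM. Krt1, the suprabasal partner of Krt10, was in 42 cells only, and its median was therefore 0 although its highest value was 28458 CPM. These cells were 3.26% of the deep cells and carried 90.7% of their Krt14 UMIs, 91.2% of their Krt1 UMIs and 83.3% of their Lgals7 UMIs. The values describe the choice of cells, since every gene of the chosen cells depends on the rule.

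Markers of other cell types were low or absent, apart from melanocyte RNA, which is described further on. Of the 14 immune genes, 7 were at 0 in all 113 cells, among them Ptprc, Cd3e, Cd207 and Adgre1, and the list summed to 30.8 CPM against 75.8 CPM in the other deep cells. Its leading gene was Cd74 at 10.5 CPM, and for each of the 4 MHC class II genes with 20 UMIs or more (Cd74, H2-Aa, H2-Ab1 and H2-Eb1) a single cell held most of the UMIs. The 8 fibroblast genes summed to 226 CPM against 848 CPM, of which Sparc was 215 CPM, while Col1a1, Col3a1, Lum and Pdgfra had no UMI. The endothelial list summed to 0.956 CPM against 3.92 CPM, with Cdh5, Kdr and Emcn at 0. The Merkel list summed to 5.26 CPM against 0.116 CPM in the other deep cells, with Atoh1 and Krt20 at 0. Muscle and red-cell genes summed to 5.02 CPM against 1.46 CPM, with Des, Myh11, Tagln and Hbb-bt at 0. A gene at 0 in all 113 cells was below 0.717 CPM, the level of 3 UMIs.

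Melanocyte RNA split the 113 cells by a visible gap. The sum of Dct, Tyrp1, Tyr, Pmel, Mlana, Kit, Mitf and Sox10 was at or under 657 CPM in 57 cells, 2 of which were at 0, and at or above 1426 CPM in the other 56. The limits used from here were set after these values were seen: under 1000 CPM (57 cells, low), from there to 25% of the level of the other deep cells, which is 6092 CPM (18 cells, middle), and above (38 cells, high). All 57 low cells were also among those ranked highest by the 6 epithelial genes outside the rule. Because the low cells were the least mixed, the layers are described in them first, with the values of all 113 cells beside them.

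Basal and suprabasal keratins divided the cells almost without intermediates. The share of Krt1 and Krt10 in the summed UMIs of Krt1, Krt10, Krt5 and Krt14 was under 5% in 81 cells and above 80% in 20, and only 8 cells lay between 20% and 80%. With the line drawn where the pairs are equal, 27 of 113 cells were suprabasal in their keratins (23.9%, 16.4 to 32.8). Among low cells it was 16 of 57 (28.1%, 16.97 to 41.5), among middle cells 1 of 18, and among high cells 10 of 38. The 41 low basal-keratin cells had a median of 29982 UMIs and the 16 low suprabasal-keratin cells 53457.5, so levels below are in CPM. A count of cells with a gene uses all UMIs of each cell, and favours the deeper suprabasal-keratin cells, unless it is said to be after thinning, that is, after each cell was drawn down to 10000 UMIs.

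**Figure D1:**
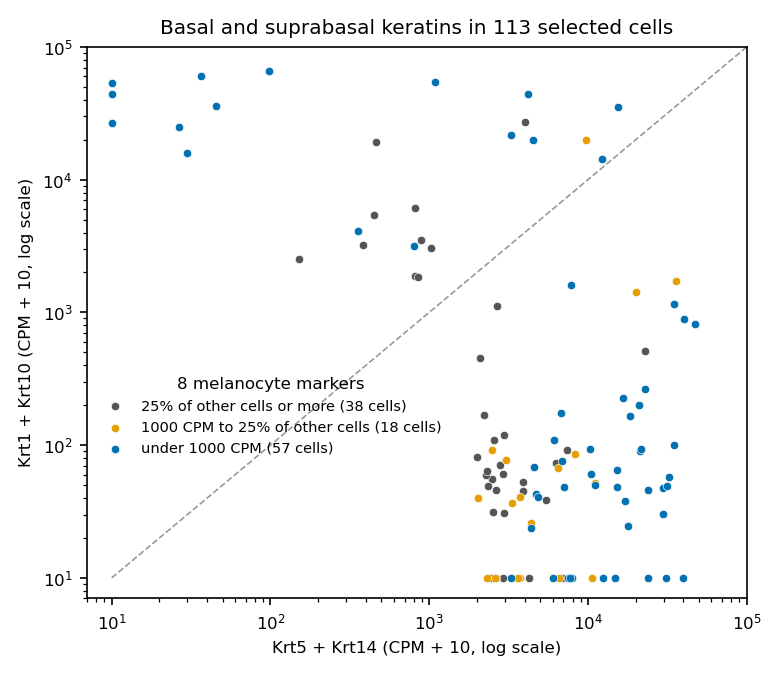
Krt5 plus Krt14 against Krt1 plus Krt10 in each of the 113 cells chosen by keratin level, in CPM with both axes logarithmic after a small offset, with colours for the low, middle and high melanocyte ranges and a dashed line where both sums are equal. Most points sit near one axis or the other, and 8 of 113 cells have a suprabasal share between 20% and 80%.

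In the 41 low basal-keratin cells Krt14 reached from 1450 to 35052 CPM with a median of 9667 CPM, and Krt5 from 13.6 to 12800 CPM with a median of 5542 CPM. Across these 41 cells Krt14 and Krt5 had a Spearman coefficient of 0.71, a description of cells of 1 library. The hemidesmosome genes followed the same division. Col17a1, the collagen of the hemidesmosome, was in 40 of the 41 cells with a median of 381 CPM, against a single cell of the 16 suprabasal-keratin cells. Pooled, it was 424 CPM against 3.59 CPM. Itga6, the laminin-binding integrin subunit of the same structure, was 327 CPM against 38.3 CPM. Itgb1 was 264 CPM against 5.99 CPM, Dst was 319 CPM against 17.96 CPM, and Trp63, the transcription factor that maintains stratified epithelium, was 223 CPM against 73.1 CPM. Krt15, a keratin of the bulge and of basal cells, was 1698 CPM against 344 CPM, the latter all from 1 of the 16 cells, at 8423 CPM. The rule did not use these genes directly, but the cells that carry them were divided by Krt5 and Krt14, so the values are a description of the division.

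Of the 16 basal genes, all of which reached 20 CPM in 1 of the 2 groups, 15 were at least 2-fold lower in the 16 suprabasal-keratin cells and 0 were higher. Over all 5805 genes that reached 20 CPM in either group, 28.5% were at least 2-fold lower and 13.1% at least 2-fold higher, with a median log2 ratio of -0.43. In all 113 cells, that is 27 suprabasal-keratin against 86 basal-keratin cells, the basal list again gave 15 of 16 lower and 0 higher, beside 26.5% lower and 11.7% higher over 6050 genes. Krt5 and Krt14, which the division used, are among these, and without them it was 13 of 14 in the low cells and 13 of 14 in all 113. The exception in the low cells was Cd44, a hyaluronan receptor found on many cell types, at 135 CPM with suprabasal and 266 CPM with basal keratins.

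The suprabasal-keratin cells showed the opposite list. Krt10 was present in each of the 16 low cells, between 3140 and 38051 CPM with a median of 19836 CPM, whereas the highest of the 41 basal-keratin cells reached 1428 CPM. The groups did not overlap in Krt10, which is one of the keratins that divide them. Krt1 was found in 13 of the 16 with a median of 13910 CPM, and in 11 of the 41 with a highest value of 1130 CPM, or in 13 and 7 cells after thinning. Krtdap, a small secreted protein of differentiating keratinocytes, stood between 1291 and 34050 CPM in all 16 cells and was 17177 CPM pooled against 881 CPM. Sbsn, suprabasin, was 6345 CPM against 505 CPM, or 6081 CPM against 197 CPM without the 4 extreme cells described below. Lypd3, a surface protein of upper epidermal cells, was in all 16 cells and was 1502 CPM against 249.9 CPM. Krt77, a type II keratin of suprabasal cells, was 4140 CPM against 7.18 CPM.

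Of 15 suprabasal genes that reached 20 CPM, 14 were at least 2-fold higher in the low suprabasal-keratin cells, beside 13.1% of all genes. The exception was Elovl4, which makes the very long fatty acids of the skin barrier and was 927 CPM against 1943 CPM in basal-keratin cells. One cell, again that richest in Elovl3, held 75.4% of the Elovl4 UMIs, and without it 15 of 15 were higher. In all 113 cells 14 of 15 were higher, beside 11.7% of all genes, and 0 lower. Without Krt1 and Krt10, which the division used, it was 12 of 13 in the low cells and 12 of 13 in all 113. Desmosome and junction genes went the same way less completely, with 10 of 20 higher and 2 lower, beside 13.1% and 28.5% of all genes. Perp, a desmosome component, was 4936 CPM against 1627 CPM, Dsp, desmoplakin, was 1993 CPM against 744.0 CPM, and Jup, plakoglobin, was 842 CPM against 259 CPM. Lgals7 and Sfn were in both groups, 21035 CPM against 9834 CPM and 6257 CPM against 3108 CPM.

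**Figure D2:**
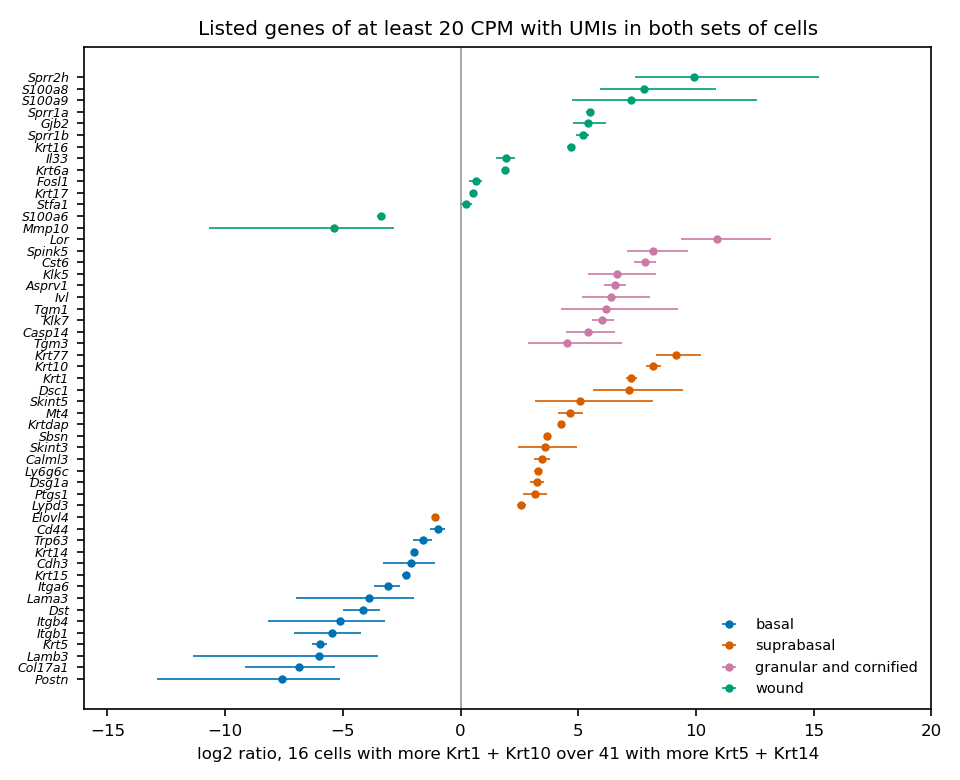
Log2 ratio of pooled CPM, 16 suprabasal-keratin over 41 basal-keratin cells low in melanocyte RNA, for listed genes that reached 20 CPM and had UMIs in both, 1 point a gene by list. Lines are Poisson intervals, and genes that stand in more than 1 of the 4 lists drawn are left out. Basal genes lie below 0, with Krt5 at -5.97, suprabasal genes other than Elovl4 above, with Krt10 at 8.19, and wound genes on both sides, with Sprr1a at 5.49 and Krt17 at 0.53, which turns to -0.17 without the cell richest in Krt6a, as Krt6a itself turns to -0.85.

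Granular and cornified genes were higher with suprabasal keratins, and the most terminal of them rested on few cells. Cst6, a protease inhibitor of the cornified layer and the most abundant gene of the list, was in all 16 low suprabasal-keratin cells and in 64 of the 113, and Asprv1, the protease that processes filaggrin, in 58 of the 113. Of 17 such genes that reached 20 CPM in the low cells, 17 were at least 2-fold higher with suprabasal keratins, beside 13.1% of all genes, and in all 113 cells it was again 17 of 17. Lor, loricrin, had UMIs in 6 and Flg, profilaggrin, in 9 of the 16 cells, and a single cell supplied 75.6% of the Lor UMIs and 82.8% of the Flg UMIs of all 113 cells. That cell had 71581 UMIs, with Lor at 43042 CPM, Flg at 33012 CPM, Krtdap at 25831 CPM, Krt10 at 13523 CPM and Krt1 at 13369 CPM. It held no UMI of Krt14 or Krt5. Cnfn, cornifelin, reached 9709 CPM in it and 1884 CPM pooled over the 16 cells, against 0 UMIs in the 41 basal-keratin cells, which makes it at least 874-fold higher. By the same floor of 3 UMIs over the basal-keratin cells, Flg was at least 1496-fold and Krt6b at least 1316-fold higher. With this cell and 3 other extreme cells left out, the remaining 13 suprabasal-keratin cells held Lor at 163 CPM, Flg at 481 CPM, Cnfn at 677 CPM and Krt6b at 306 CPM (2835 CPM with them), and 16 of 16 granular genes were still higher. Krt1 at 16380 CPM and Krtdap at 17367 CPM stayed close to their levels in 16 cells.

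Wound-associated genes were present but uneven between the selected cells, with Krt17 in 87 of the 113 cells, Krt6a in 52 and Sprr1a in 46. Of 19 such genes that reached 20 CPM, 18 were at least 2-fold higher in the 113 cells than in the other deep cells and 0 were lower, beside 13.3% higher and 13.0% lower over all 6288 genes. Their median log2 ratio was 6.56, against -0.14 for all genes with a UMI in both. The medians of the genes' own lower and upper limits were 6.17 and 6.88, which are not an interval of that median. The contrast contains the rule, so nothing is read from these counts. Mmp9, a matrix protease of migrating cells, had no UMI in any of the 113 cells.

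Within the keratinocytes, wound genes of both directions were found between the layers. Krt17 was present in both layers, with 2170 CPM in the 41 basal-keratin and 3124 CPM in the 16 suprabasal-keratin cells, a log2 ratio of 0.53 (0.45 to 0.60). The order depended on 1 cell, that richest in Krt6a, which held 46.3% of the suprabasal-keratin UMIs of Krt17. Without it the suprabasal-keratin level was 1932 CPM and the log2 ratio turned to -0.17 (-0.26 to -0.08), and without 4 extreme cells, described below, it was -0.15. Without the basal-keratin cell richest in Krt17, which held 28.0% of the basal-keratin UMIs, it was 0.97. S100a6, a calcium-binding protein, was in all 41 basal-keratin cells with a median of 3024 CPM and was 4210 CPM pooled against 399 CPM. Sprr1a, a cornified envelope precursor induced in injured skin, lay the other way. It had UMIs in 13 of 41 basal-keratin cells with a highest value of 4095 CPM, and in 15 of 16 suprabasal-keratin cells with a median of 4460 CPM and a highest value of 43932 CPM, or in 12 and 14 cells after thinning. Pooled, Sprr1a was 187 CPM against 8402 CPM, a log2 ratio of 5.49 (5.31 to 5.68). Sprr1b was 82.6 CPM against 3024 CPM. Serpinb2, a serpin made by keratinocytes, was in 15 of the 16 cells at a median of 1962 CPM. It was also in 22 of the 41 basal-keratin cells, at a median of 38.3 CPM with a highest value of 8374 CPM. Krt16 was in 19 of 41 and 13 of 16 cells (13 and 11 after thinning), and was 261 CPM against 6661 CPM. In low cells 13 of 23 wound genes were at least 2-fold higher with suprabasal keratins, beside 13.1% of all genes, and 7 were lower, beside 28.5%. In all 113 cells 14 of 20 were higher, beside 11.7%, and 5 lower, beside 26.5%.

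Several wound genes rested on single cells. Of 19 wound genes of at least 20 CPM, 8 had over 50% of their UMIs in 1 cell, while 0 of 16 basal genes did, and over all genes of at least 20 CPM it was 50 of 5353. Krt6a, the inducible keratin of wound edges and of the companion layer, was 848 CPM over the 113 cells, and 56.2% of it came from the deepest cell, of 109945 UMIs. In that cell Krt6a was 18136 CPM, Krt6b 18000 CPM, Krt16 22275 CPM and Krt17 10987 CPM beside Krt14 at 12133 CPM, Krt1 at 6640 CPM and Krt10 at 7658 CPM. Without it Krt6a was 382 CPM over the other 112 cells, and in the low cells its log2 ratio between the layers turned from 1.89 to -0.85. Without it, too, 9 of 21 wound genes were higher and 8 lower with suprabasal keratins, beside 13.7% and 30.1% of all genes. Without the 4 extreme cells 8 of 20 were higher and 9 lower, beside 14.8% and 27.0%. The 13 other suprabasal-keratin cells held Sprr1a at 7775 CPM, Krt16 at 4650 CPM and Krt17 at 2064 CPM, against 2289 CPM of Krt17 in the 40 basal-keratin cells left. A further cell of 17231 UMIs held 96.1% of Sprr2d and 94.3% of Lce3e, with Sprr1a at 43932 CPM and Sprr2h at 10272 CPM. Krt6a and Krt6b, Krt14, Krt16 and Krt17, and the Sprr2 and Lce families are groups of related genes between which UMIs may be split, which was not tested.

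**Figure D3:**
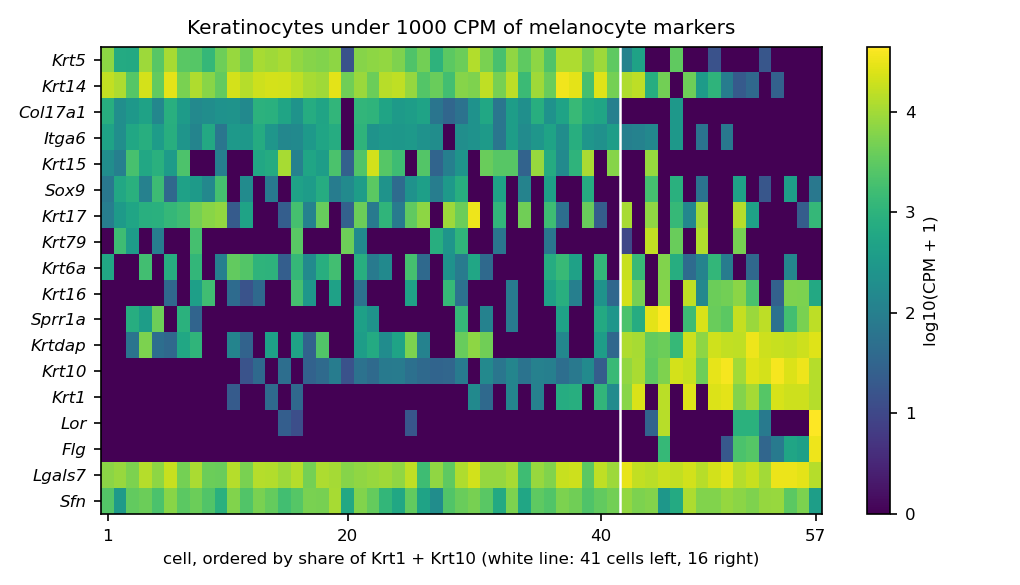
Level of 18 genes, log10(CPM + 1), in each of the 57 keratinocytes low in melanocyte RNA, with 41 basal-keratin cells on the left and 16 suprabasal-keratin cells on the right. Krt5, Krt14 and Col17a1 fill the left block, Krt10 and Krtdap the right, and Krt17 and Sox9 occur in a part of the cells of both.

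Among basal-keratin cells Krt17 was high where Krt14 was lower. Of the 41 cells, 18 had Krt17 at or above 1000 CPM, a limit set after the values were seen. Their median Krt14 was 5967 CPM against 15983 CPM in the other 23, their median Krt5 was 4008 CPM against 7076 CPM and their median Col17a1 238 CPM against 499 CPM, at similar depth (medians of 29080.5 and 30174 UMIs). Sox9, a transcription factor of the outer root sheath and bulge, went with Krt17: it was at or above 100 CPM in 16 of the 18 cells and in 8 of the 23, with medians of 399 CPM and 71.2 CPM. Krt15 did not, with 6 of 18 and 10 of 23 cells at or above 1000 CPM. Across the 41 cells the Spearman coefficient with Krt17 was 0.58 for Sox9, -0.53 for Krt14, -0.35 for Col17a1, -0.31 for Krt15 and -0.05 for the number of UMIs. These coefficients describe cells of a single library whose levels are shares of the same total.

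A second pattern of this kind lay among the 16 suprabasal-keratin cells. Krt79, a keratin of the upper HF and its opening, was between 3773 and 16405 CPM in 4 cells and at most 9.10 CPM in the other 12. All 4 had Krt17 at or above 1000 CPM, as did 2 of the 12. Krt1 was 0 at the median of the 4 with a highest value of 5969 CPM, whereas the 12 ran from 2570 to 28458 CPM. Krt10 overlapped between them, from 3140 to 21843 CPM in the 4. Cst6, also a gene of the upper HF, had a median of 39512 CPM in the 4 and 1151 CPM in the 12. The 4 cells were picked out by Krt79 after the values were seen.

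Genes of the outer layers of the HF were present and genes of the forming hair were near 0. Of the outer root sheath and bulge list, 12 of 12 genes that reached 20 CPM were at least 2-fold higher than in the other deep cells, beside 13.3% of all genes in a contrast that contains the rule, with Krt15 at 1114 CPM, Sox9 at 249 CPM, Defb6 at 339 CPM and Fst at 190 CPM. Between the layers 4 of 13 were higher with suprabasal keratins and 7 lower, beside 13.1% and 28.5% of all genes. Of 19 genes of the matrix, inner root sheath and cortex, 7 had no UMI (Krt25, Krt33a, Krt34, Krt35, Krt81, Krt82 and Krt86). The list summed to 131 CPM, of which Gata3, a factor also made in interfollicular epidermis, was 99.4 CPM.

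Of the UMIs of the 12 sebaceous genes, 49.1% were in 1 cell. It had 73784 UMIs, Krt14 at 4351 CPM, Krt5 at 13.6 CPM and melanocyte markers at 67.8 CPM. The lipid synthesis genes Elovl3, Scd1 and Fa2h were 4771, 17511 and 5245 CPM in it, and Krt79 was 4174 CPM. It held all UMIs of Elovl3, Scd3 and Awat1 among the 113 cells, 99.7% of Fa2h, 97.0% of Far2 and 88.0% of Scd1, but 42.5% of Mgst1, 35.2% of Plin2 and 13.1% of Krt79, the most abundant gene of the list. Of the sebaceous list, 6 of 9 genes that reached 20 CPM were at least 2-fold higher in the 113 cells than in the other deep cells, beside 13.3% of all genes, and without this cell 1 of 5. It counted as basal by its keratins, and between the layers 8 of 10 sebaceous genes were lower with suprabasal keratins, beside 28.5% of all genes, against 2 of 5 without it.

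By the ratio over the other deep cells, the 10 leading genes of at least 50 CPM were Lce3e, Sprr2d, Calm5, Fa2h, Krt6a, Elovl3, Fcgbp, Serpinb2, Ifi202b and Tns4. Of these, Lce3e, Sprr2d, Fa2h, Elovl3 and Krt6a had most of their UMIs in single cells described above, and without its cell Fa2h was 0.243 CPM and Elovl3 at 0. Calm5, a calmodulin-like protein of differentiating skin, was 98.2 CPM against 0.197 CPM, Serpinb2 was 808 CPM against 2.24 CPM, and Tns4, a tensin of epithelia, was 70.3 CPM against 0.243 CPM. In the other direction stood Cxcl9, Trpm1, Mc1r, Gpr143, Cthrc1, Ednrb, Tspan10, Tyr, Slc24a5 and Ptgds. Most of these are melanocyte genes, while Cxcl9, an interferon-induced chemokine, was 1.43 CPM against 50.1 CPM. Between the layers, in all 113 cells, Krt6b, Cnfn, Flg, Lor and Sprr2h led with suprabasal keratins. With basal keratins it was Postn, a matrix protein (168 CPM against 0.912 CPM), Col17a1, the adhesion molecule Icam1 (126 CPM against 0 of 1096105 UMIs), Fa2h, nearly all from the cell richest in Elovl3, and Ccl27a, the chemokine of skin-homing T cells (240.3 CPM against 5.47 CPM). In the low cells alone the genes lower with suprabasal keratins were Hist1h2ap, a replication-dependent histone, Ccl27a, Col17a1, Crip1 and Cers4. A single cell held 88.1% of the Cers4 UMIs of the 41 basal-keratin cells, and only 9 of them had any.

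Among low cells, cell-cycle genes were mostly found with basal keratins, and detection in the high melanocyte range did not follow this division. In the low cells all 20 of 20 proliferation genes were at least 2-fold lower in the low suprabasal-keratin cells, against the 28.5% of all genes, and the list summed to 89.8 CPM there and 1530 CPM in the basal-keratin cells. Mki67, a marker of cycling cells, was 121 CPM in the 41 cells and had no UMI among 835036 in the 16. After thinning, Mki67 or Top2a was detected in 17 of 41 basal-keratin cells (41.5%, 26.3 to 57.9) and 1 of 16 suprabasal-keratin cells (6.25%, 0.158 to 30.2), with intervals that meet. Without thinning it was 25 and 4 cells. In the high range it was 9 of 10 suprabasal-keratin and 20 of 28 basal-keratin cells. Of those 10 suprabasal-keratin cells, 8 were among the 15 high cells under 20000 UMIs, whose median melanocyte level was 22531 CPM. Over all 113 cells, 11 of 27 suprabasal-keratin cells (40.7%) stood against 49 of 86 (56.98%). By level, 19 of 19 proliferation genes were lower with suprabasal keratins in all 113 cells, beside 26.5% of all genes. The other deep cells showed 42.3% after thinning and the middle cells 72.2%.

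Signals that are known to act on melanocytes were measured in the keratinocytes, mostly in the basal-keratin cells. Of 15 such genes that reached 20 CPM in low cells, 12 were at least 2-fold lower with suprabasal keratins and 0 higher, beside 28.5% and 13.1% of all genes. In all 113 cells 11 of 14 were lower and 0 higher, beside 26.5% and 11.7%. Kitl, the ligand of the melanocyte receptor Kit, was 53.9 CPM in basal-keratin cells (15 of 41 after thinning, 36.6%) and 10.8 CPM in suprabasal-keratin cells (1 of 16), and 2.29 CPM in the other deep cells, where 1.58% had a UMI after thinning. Nrg1, an ErbB receptor ligand, was 71.1, 2.40 and 0.162 CPM in the same order. Wnt4 was 207, 99.4 and 9.13 CPM and Wnt10a, another Wnt ligand of the epidermis, 97.0, 3.59 and 0.150 CPM. Nfib, a transcription factor of HF stem cells, was 376, 63.5 and 87.4 CPM. Edn1 was 16.5 CPM over the 113 cells, while Edn3, Hgf and Fgf7 had no UMI, below 0.717 CPM. The EGF receptor ligands were spread over both layers: Hbegf was 124 CPM with basal and 134 CPM with suprabasal keratins, Epgn 106 and 89.8 CPM, and Areg 65.4 and 137 CPM. The other deep cells had 7.001, 0.694 and 0.868 CPM of these 3 ligands.

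Most genes that respond to tissue dissociation were higher in the selected cells than in the other deep cells, in 14 of 20 by at least 2-fold. This stood beside 13.3% of all genes in a contrast that contains the rule, and the list summed to 13056 CPM against 7228 CPM. Jun was 1524 CPM against 711 CPM, Fos 1110 CPM against 376 CPM, and Atf3 903 CPM against 246 CPM. Hspb1, a small heat-shock protein that is also a differentiation marker of epidermis, was 1298 CPM against 94.8 CPM. Heat-shock genes went both ways. Dnajb1 had a log2 ratio of 1.90, but Hspa8, the most abundant gene of the list, was at -0.31. Hsp90aa1 was at -0.66, Hspa1a at -0.98 and Hspa1b at -0.21. Between the layers the sums were 12677 and 13014 CPM, although Hspb1 was 505 CPM with basal and 4338 CPM with suprabasal keratins. The part of dissociation in the wound-associated levels was not tested.

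Melanocyte transcripts were found in nearly all of the 113 cells, at levels between 0 and 27314 CPM. Summed over the 113 cells, the 8 markers were 4352 CPM, which is 17.9% (17.6 to 18.1) of the 24366 CPM in the other deep cells. The low cells held 242 UMIs of the 8 markers among 2227504, or 109 CPM, which is 0.446% (0.391 to 0.506) of that level. In the middle cells it was 4146 CPM (17.02%) and in the high cells 11978 CPM (49.2%). Dct, the dopachrome tautomerase whose promoter drove the sorting label, was 23.3 CPM in the low cells, 1482 CPM in the middle, 4048 CPM in the high and 7638 CPM in the other deep cells. At 10000 UMIs it was detected in 15 of 57 low cells (26.3%) and in 99.9% of the other deep cells, and with all UMIs in 33 of 57. Tyr, tyrosinase, was in 0 of 57 low cells at that depth, and in 3 with all UMIs. By a floor of 3 cells, not a Clopper-Pearson limit, the 0 allows a share of cells with a UMI of up to 5.26%. Among barcodes with under 1000 UMIs the 8 markers stood at 19940 CPM, or 81.8% of the level of the other deep cells.

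The traces in the low cells were uneven between genes. Relative to the other deep cells, Dct was at 0.306%, Pmel at 0.451%, Mlana at 0.448% and Tyrp1 at 0.521%. Rab27a, which carries melanosomes along actin, was at 5.495%, from 11 UMIs, and Sox10 at 3.79%, from 10 UMIs. Rab38, a melanosome trafficking GTPase, stood apart at 53.8%, or 72.3 CPM from 161 UMIs against 134 CPM, and was 45.2 CPM with basal and 117 CPM with suprabasal keratins. Dct made up 21.5% of the summed markers in the low cells, 35.8% in the middle, 33.8% in the high and 31.3% in the other deep cells, and 29.6% in barcodes under 1000 UMIs. Whether the traces are free RNA, transferred material or the cells' own transcripts was not tested.

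**Figure D4:**
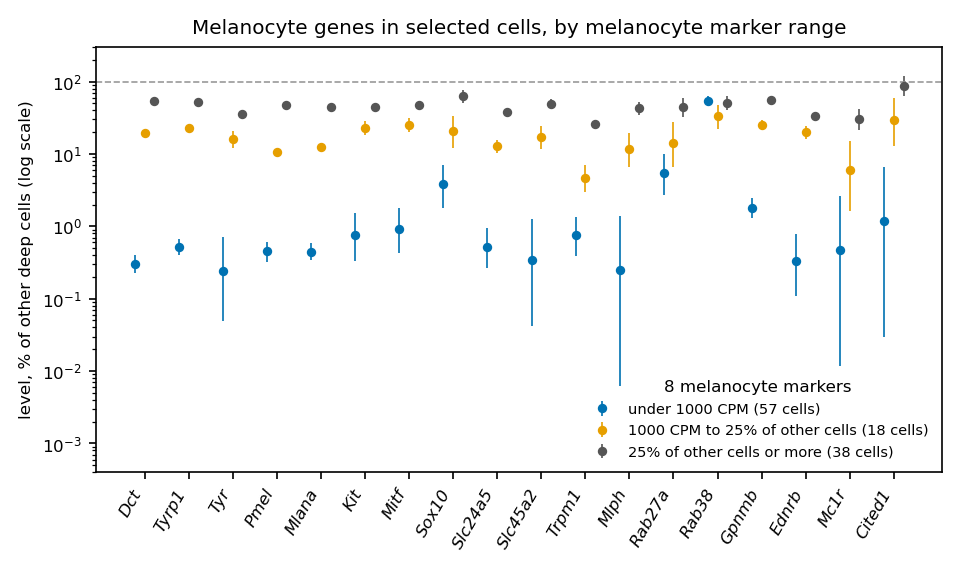
Level of 18 pigment-cell genes in the low, middle and high ranges of the 113 cells chosen by keratin level as a percent of the other deep cells, on a logarithmic axis, with exact Poisson intervals. In the low cells Dct stands at 0.306% and Rab38 at 53.8%, and for each gene but Rab38 the high cells lie nearest to 100%.

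The 56 middle and high cells carried both kinds of RNA, and the shallow high cells resembled the other deep cells in melanocyte level. Lgals7, a gene outside the rule, was in all 38 high cells, at 505 CPM or more. In the high cells, 15 held under 20000 UMIs, with a median of 12666 UMIs, rule keratins of 2623 CPM and melanocyte markers of 22531 CPM, close to the median of 23739 CPM in the other deep cells, and their median Krt17 was 0. The other 23 had medians of 46688 UMIs, 10217 CPM of melanocyte markers and 2234 CPM of Krt17. Across the 56 cells the melanocyte sum had a Spearman coefficient of -0.43 with the rule keratins and -0.55 with UMIs, while in the 57 low cells it was -0.08 with UMIs. No doublet caller was run, and these cells were not separated from pairs of cells in 1 droplet.

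**Figure D5:**
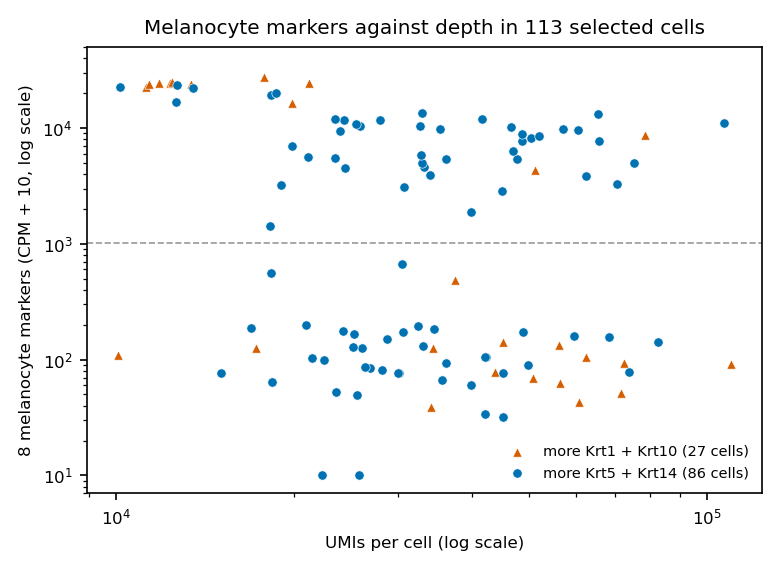
Summed level of 8 melanocyte markers in CPM against UMIs for each of the 113 cells, both on logarithmic axes, with keratin class marked and a dashed line at 1000 CPM. An empty band between 657 and 1426 CPM separates 57 cells from 56, and 15 of the 38 cells in the high range hold under 20000 UMIs.

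The outer root sheath and bulge list summed to 7394 CPM in low, 2731 CPM in middle and 2088 CPM in high cells, led by Cst6 in the low cells. Some of its genes and a Wnt antagonist, picked after their values were seen, did not follow this order. Lhx2, a transcription factor of HF stem cells and hair germ, was 278 CPM in middle and 171 CPM in high cells, against 29.6 CPM in low cells and 3.89 CPM in the other deep cells. After thinning it was detected in 14 of 18 middle (77.8%), 20 of 38 high (52.6%) and 10 of 57 low cells (17.5%), and in 2.63% of the other deep cells. Sfrp1, a secreted Wnt antagonist, was 256, 130 and 56.6 CPM in middle, high and low cells against 1.45 CPM in the other deep cells. Lgr5, a receptor of HF stem cells, was 38.7, 51.7 and 12.6 CPM in the same order. Krt17, again in that order, pooled to 2389, 2500.3 and 2527 CPM, but its median over cells was 2310, 1360 and 445 CPM, and after thinning it was detected in 88.9%, 71.1% and 59.6% of cells, while pooled Krt14 was 5009, 2787 and 9389 CPM and Sprr1a 135, 191 and 3266 CPM.

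The bulb library offered no matching keratinocytes. Of its 3774 cells with over 5000 UMIs and under 5% mitochondrial UMIs, 1 met the keratin rule (0.0265%, 0.000671 to 0.148), and it held 22 UMIs of Krt14, 100 of Krt17 and 0 of Krt1 and Krt10. As the nearest population, the 46 bulb cells whose melanocyte markers were under 25% of their library's level were set beside the 57 low keratinocytes, a choice made after the data were seen. The limits are unlike. The melanocyte markers reached 16025 CPM in these bulb cells and 657 CPM in the low keratinocytes. Their pooled levels were 1963 CPM and 109 CPM, and other pigment genes summed to 7912 CPM and 110 CPM in the same order. Krtdap was 6990 CPM in the keratinocytes and 0 of 519993 UMIs in the bulb cells, and Krt1 and Sprr1a also had no bulb UMI. Calm4 and Dmkn, genes of differentiating epidermis, completed the 5 leading genes. In the other direction the trichohyalin gene Tchh was 8.08 CPM against 7858 CPM, Fabp4, a fatty acid carrier, was 0 UMIs against 6444 CPM, and Krt75, a companion layer keratin, was 0 UMIs against 1388 CPM, with Sct and Alppl2 the remaining 2. Of the matrix, inner root sheath and cortex genes 13 of 14 were at least 2-fold lower in the early-anagen keratinocytes, beside 30.3% of all 6343 genes, and 13 of 16 basal and 12 of 14 suprabasal genes were higher, beside 24.5%. Only the early-anagen cells were chosen by Krt5, Krt10 and Krt14, so nothing is read from the last 2 counts, which without these keratins and Krt1 were 11 of 14 and 10 of 12. Wound genes were 15 of 19 higher and 3 lower, beside 24.5% and 30.3% of all genes. Krt17 was among the latter, at 2527 CPM against 5314 CPM, and S100a6 was 2781 CPM against 5237 CPM. In the low keratinocytes single cells held 59.9% of the Krt6a, 83.6% of the Krt6b and 96.4% of the Sprr2d UMIs. No count without such cells is given for this contrast. The wound genes were counted in the same cells chosen by keratins, so nothing is read from their counts either. Kit version, dissociation, mouse age, plucking, position in the skin and HF stage all change with the library, and their parts cannot be told apart.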

How the data were processed

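For each of the 2 droplet libraries the authors deposited a matrix of raw counts (UMIs of 3′ ends) made with Cell Ranger 6.0.1 on mm10 (GRCm38), so levels between genes need no scaling by length. Barcodes under 500 UMIs (504 in the bulb library) are not listed. Filters were over 10000 UMIs (early anagen) or 5000 UMIs (bulb) and under 5% mitochondrial UMIs. CPM is a gene's UMIs scaled to 1000000 UMIs of the cell, or of the summed cells of a group (pooled), with exact Poisson intervals. Counts of cells with a gene use all UMIs unless given as thinned, each cell then being drawn down to 10000 UMIs. Intervals on shares are Clopper-Pearson. A gene was counted as higher or lower from a 2-fold difference where either group reached 20 CPM. With 1 library per condition no test was made. No doublet caller was run. The members and gene lists were chosen with earlier results of these data known.

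Named genes were the 6 markers, the up to 5 most abundant genes of each list and those at 0, the 10 of at least 50 CPM with the largest ratio each way over the other deep cells, and the 5 of at least 100 CPM each way between layers and against the bulb. Mitochondrial, ribosomal protein and clone-named genes were left out of the ranked genes. The layer division, the single cells with most Lor, Krt6a, Sprr2d or Elovl3, and genes of lower rank were named after their values were seen. Gene coordinates were from GENCODE vM21 and promoters from RefSeq, where 2 of the 8 genes placed on the genome, Krt1 and Krt17, had no entry. The scripts (Python 3.11.15, numpy 2.4.6, scipy 1.17.1, pandas 2.3.3) were tested on simulated counts. Alternatives were the limits of the rule, depth and mitochondrial filters, thinning, per-cell means and other choices of cells. The planned comparison of wound genes with bulb keratinocytes was replaced, since 1 bulb cell met the rule. The telogen library was not analysed here. 1 listed gene is not reported here by name.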

Additional observations from a re-analysis of the deposited data

Results flagged for a closer look

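A keratinocyte signal appeared in barcodes that the comparisons did not use. Of the 4389 early-anagen barcodes at or under 10000 UMIs and under 5% mitochondrial UMIs, 440 met the same keratin limit (10.0%, 9.15 to 10.95), 382 of them with at least 3 UMIs of the rule keratins. Their median was 1194 UMIs. Pooled, they held Lgals7 at 12102 CPM, Krt14 at 5270 CPM, Krt6b at 1758 CPM and Krt6a at 1476 CPM, and in 167 of the 440 Krt1 and Krt10 exceeded Krt5 and Krt14. Melanocyte markers stood at 12999 CPM in them, which is 53.3% of the other deep cells. A further 6 of 305 barcodes over 10000 UMIs with at least 5% mitochondrial UMIs met the limit (1.97%, 0.725 to 4.23). Neither set was compared between groups.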

How the results depend on the processing

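The number of selected cells followed the keratin limit: 113 cells became 241 at 1000 CPM and 66 at 5000 CPM. It was 75 without the high melanocyte range and 57 with the low range alone, a choice made after seeing the data. The suprabasal share of 23.9% moved to 39.8% at 1000 CPM and lay between 19.1% and 31.0% otherwise. The median log2 ratio of the wound list, 6.56, was 7.30 above 20000 UMIs, 6.88 without the high range, 6.94 with cells ranked by 6 other epithelial genes, 5.84 after thinning, 5.71 by per-cell means, 7.29 against other cells under 200 CPM of keratin and 7.10 in low cells alone. The melanocyte level, 17.9% of the other deep cells, was 39.4% at 1000 CPM, 7.66% at 5000 CPM, 21.3% above 5000 UMIs, 14.9% above 20000 UMIs, 18.8% with a mitochondrial limit of 10%, 4.40% without the high range, 22.8% after thinning, 22.7% by per-cell means, 18.9% with the reduced total and 0.446% in low cells alone. The median log2 ratio of the wound list stayed positive under these settings, in a contrast that contains the rule. The number of cells, the suprabasal share and the melanocyte level have no sign that could turn. The causes of the shifts were not tested. Between the layers, Krt17 (log2 0.53 to -0.17) and Krt6a (1.89 to -0.85) turned without the cell richest in Krt6a, Elovl4 (-1.07 to 6.59) and, near 0, Hbegf (0.11 to -0.04) turned without the 4 extreme cells, and the wound list went from 13 higher and 7 lower to 8 and 9. With 1 library per condition there is no replicate to leave out. No paired analysis was possible because no test was made and each group has 1 library.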
